A study of Mus musculus with 18 samples.

Results

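The imprinted Dlk1-Dio3 domain of mouse chromosome 12 carries one of the largest miRNA clusters of the mammalian genome, and 40 of its mature miRNAs were followed here by name. The 40 names were a fixed list, and each matched 1 of the 2045 miRNA rows (1907 mature names) in a table of 6017 small RNA genes. EV (extracellular vesicles) and the DC (dendritic cells) that released them were compared in 18 libraries, with n = 3 for each of control-DC, LPS-DC, VitD3-DC, control-EV, LPS-EV and VitD3-EV. Over the 18 libraries 17 of the 40 miRNAs had at least 1 read and 23 had none. They held 168 reads in all, of which 151 were in EV and 17 in cells, although the cellular libraries were far deeper. The share of miRNA reads that came from the 40 miRNAs was higher in EV than in the matched cells in 9 of 9 pairs.

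DC were grown from primary bone marrow of C57BL/6 mice in medium with GM-CSF, without genetic modification, and all groups shared this culture. Control cultures received no further agent, LPS cultures received LPS, a component of the outer membrane of bacteria that DC sense as a danger signal, for 24 h, and VitD3 cultures received 10 nM VitD3, the active form of vitamin D, for 12 days. After recovery the cells were kept in EV-depleted medium, and EV were purified from that medium by differential centrifugation and a sucrose density gradient. The GM-CSF in the culture came from medium conditioned by a GM-CSF-producing line derived from NIH 3T3, a mouse fibroblast line, and the medium contained fetal calf serum. The EV-depleted medium was also made from this conditioned medium and serum. By the paper's account the depletion removed most EV on average, but not all. The part of such remaining EV in the EV libraries was not tested. The replicates were prepared on different days. The sample titles name no culture, so replicate numbers, which follow the order of the titles, were taken to pair an EV library with its cells. Whether the marrow of several mice was pooled is not given in the sources used here, so the SD measures the spread between days of culture. The main fits took the day out as a block. Their p-values therefore rest on the spread between libraries that is left after the day, not on the spread between mice.

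Imprinting means that only one parental copy of a gene is used. In the Dlk1-Dio3 domain the protein-coding genes Dlk1, Rtl1 and Dio3 are read from the paternal chromosome, whereas the long non-coding RNAs Meg3, Rian and Mirg, with the miRNAs and C/D box snoRNAs of the same strand, are read from the maternal chromosome. The miRNAs are known for high levels in embryo, placenta and brain, and for lower levels in most other adult tissues. A miRNA pairs with its target mRNAs mainly through its seed, the bases 2 to 8 counted from its 5′ end.

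Of the 40 miRNAs, 37 have an entry in the RefSeq table used here (assembly GRCm38.p6, which is mm10) and all 37 lie on the plus strand of chromosome 12, between bases 109580243 and 109743784. miR-376c-3p, miR-485-5p and miR-487b-3p are named only. The 5 miRNAs with at least 10 reads, on which the tests rest, have the following mature sequences, 5′ to 3′, with the seed in capitals.
miR-127-3p: uCGGAUCCgucugagcuuggcu
miR-379-5p: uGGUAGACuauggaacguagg
miR-411-5p: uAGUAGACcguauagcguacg
miR-409-3p: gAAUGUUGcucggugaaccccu
miR-381-3p: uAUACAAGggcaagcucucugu

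No 2 of the 37 share a seed. miR-379-5p and miR-411-5p, which lie next to each other, come closest among the 5. Counted from the 5′ end, and with the base of miR-379-5p first, they differ at 7 positions, of which G2A is the only one in the seed. Of the 37, 6 share a seed with a mature miRNA outside the list, for example miR-379-5p with miR-1193-5p. None of the 37 lies within 2 edits of any other mature mouse miRNA in the RefSeq table, and the closest pair is 3 edits apart.

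miR-127-3p, the miRNA with the most reads, is one arm of a hairpin of 70 bases at chr12:109592846-109592915 on the plus strand. The hairpin is shown with both of its mature arms in capitals, since the arms were measured separately: miR-127-5p comes first and miR-127-3p second.
Mir127 hairpin: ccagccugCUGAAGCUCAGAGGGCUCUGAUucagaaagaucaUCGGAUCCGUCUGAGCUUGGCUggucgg

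Depth differed strongly between the compartments. An EV library held 33337 to 329240 miRNA reads and a cellular library 1025913 to 4247919, and each cellular library was 4.66 to 51.0 times as deep as its EV library. Over all RNA classes, the counted reads ranged from 410968 to 3053774 in EV and from 12427662 to 42065263 in cells. Shares are given in RPM, the reads of a miRNA or list per 1000000 miRNA reads of the library, and intervals are exact 95% Poisson intervals, which cover counting error only, since PCR copies were not marked with molecular identifiers. Replicate 3 stood apart in every group. Its muscle miRNAs (miR-1a-3p, miR-133a-3p, miR-133b-3p and miR-206-3p) summed to 66730 to 74139 RPM in EV, against at most 119 in the other EV libraries, and to 3618 to 7485 in cells, against at most 202.5. By the labels replicate 3 was also sequenced in run 2 throughout and replicate 1 in run 1, so that day and run cannot be told apart between these 2 replicates. Replicate 3 held 102 of the 151 EV reads of the 40 miRNAs (67.5%) with 52.9% of the EV miRNA reads, and 12 of the 17 reads in cells. Values in each library are therefore given, and the pooled ratios of lists and the numbers of miRNAs called are also given without it.

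The summed share of the 40 miRNAs was 18.9, 153 and 128 RPM in control-EV replicates 1, 2 and 3, from 3, 9 and 42 reads. It was 24.0, 30.0 and 81.1 RPM in LPS-EV, from 5, 1 and 21 reads, and 163, 236 and 323 RPM in VitD3-EV, from 21, 10 and 39 reads. VitD3-EV replicate 1, the lowest of its group, was above each of the 6 control-EV and LPS-EV libraries, while control-EV and LPS-EV overlapped. miR-127-3p, described below, held 35 of the 70 VitD3-EV reads, against 13 of 54 in control-EV and 9 of 27 in LPS-EV. The other miRNAs did not show this separation. In VitD3-EV replicate 2 their only reads were of miR-381-3p and miR-494-3p, at 23.6 RPM each. In control-EV replicate 2 miR-411-5p alone was at 68.0 RPM. In cells no library exceeded 2.21 RPM: the reads were 1, 0 and 2 in control-DC, 0, 2 and 6 in LPS-DC, and 2, 0 and 4 in VitD3-DC. The lowest EV library was thus above the highest cellular library.

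The group means were 99.8 ± 71.2 RPM in control-EV, 45.0 ± 31.4 in LPS-EV and 241 ± 80.1 in VitD3-EV (SD, n = 3 each). In cells they were 0.759 ± 0.678 in control-DC, 1.29 ± 1.15 in LPS-DC and 0.742 ± 0.665 in VitD3-DC (SD, n = 3 each). Pooled over 9 libraries each, the share was 113 RPM in EV (interval 95.5 to 132) and 0.947 in cells (0.552 to 1.52), a ratio of 119 (exact conditional interval 71.9 to 210). Without replicate 3 it was 147 (58.9 to 473), so this ratio did not rest on that replicate. The ratio was 130 (42.2 to 651) in control, 40.7 (18.0 to 104) in LPS and 319 (139 to 898) in VitD3 cultures. Without replicate 3 these became 133 (19.7 to 5705), 41.2 (7.36 to 417) and 337 (85.7 to 2904), on 1, 2 and 2 reads in cells. At the share seen in the matched cells, the EV libraries would have held 1.49 reads of the 40 miRNAs in all, against 151 observed. A share cannot tell more copies of these miRNAs from fewer copies of the other miRNAs, and the number of EV per cell was not part of these counts. By the paper's measurements LPS-DC released more EV than control DC, and VitD3-DC released fewer. The part of these EV numbers in the shares was not tested. No test was run on the sum, because the list was drawn up with results of these data known.

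**Figure D1:**
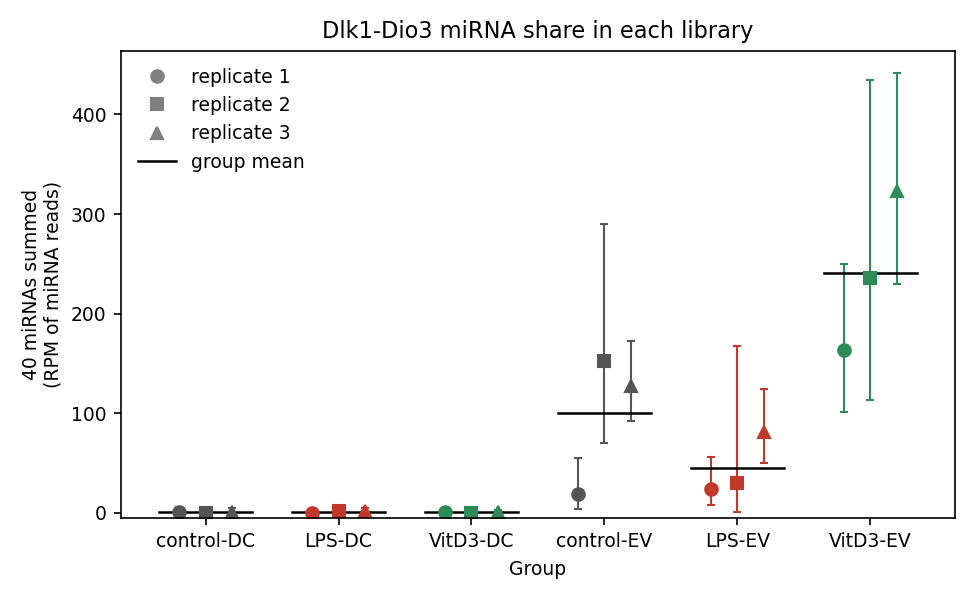
Summed share of the 40 Dlk1-Dio3 miRNAs in each library, in RPM of miRNA reads, by group; markers are the 3 replicates, bars exact 95% Poisson intervals (counting error only) and lines group means. The 9 EV libraries lie between 18.9 and 323 RPM, and no cellular library exceeds 2.21.

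The number of the 40 miRNAs with a read was 1 to 8 per EV library (median 5) and 0 to 5 per cellular library (median 1), despite the lower depth of the EV libraries. Over the 9 EV libraries 13 of the 40 had reads (32.5%), beside 535 of the 1867 other mature names (28.7%). Over the 9 cellular libraries 10 of the 40 had reads (25.0%), beside 766 of the 1867 others. Of the 40, 6 were seen in both, 7 in EV only and 4 in cells only. Over all 1907 mature names, 832 had at least 1 read, with 548 seen in EV and 776 in cells. The miRNAs seen in cells were at the edge of detection, with at most 4 reads each over 9 libraries. By abundance miR-127-3p ranked 153 of the 548 mature names with reads in EV, and 595 of 776 in cells.

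**Figure D2:**
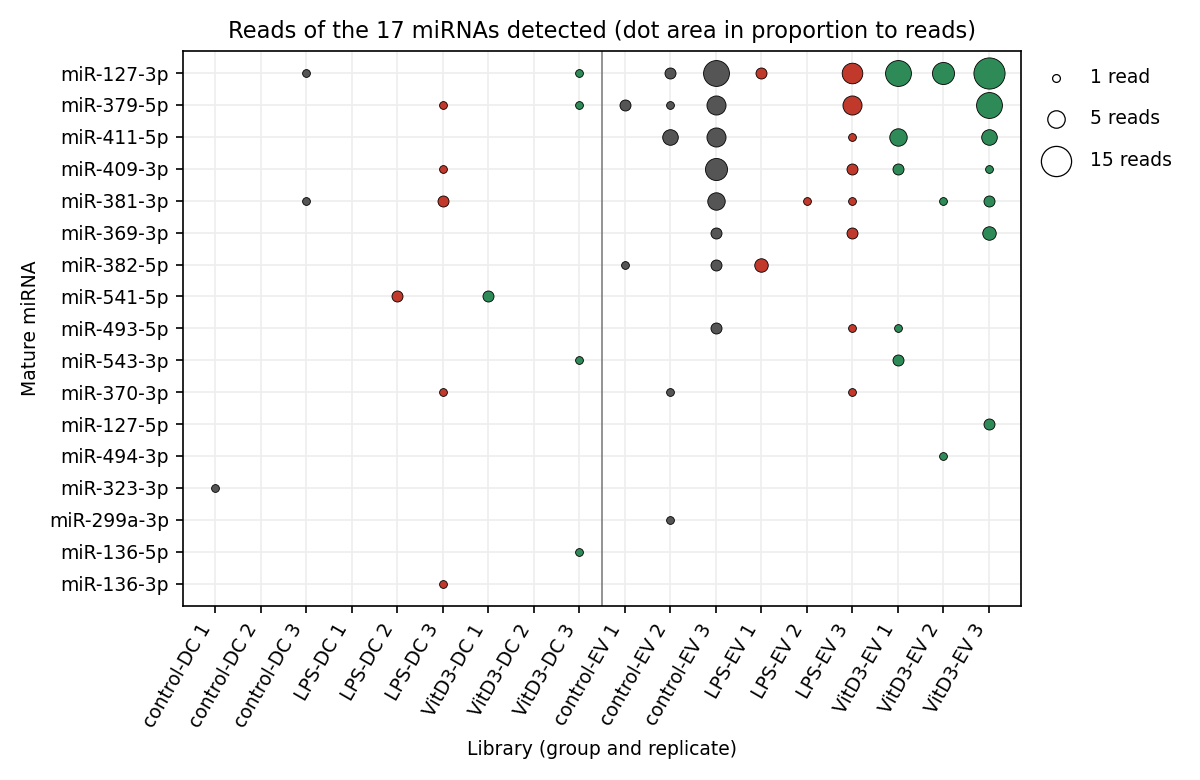
Reads of the 17 Dlk1-Dio3 miRNAs with at least 1 read (vertical axis) in each of the 18 libraries (horizontal axis, cells left and EV right of the line); dot area is in proportion to the reads, and colours mark control (grey), LPS (red) and VitD3 (green). miR-127-3p has 16 reads in VitD3-EV replicate 3, the largest dot, and no cellular library has more than 2 reads of any of the 17.

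The miRNAs were ordered by their place in the domain. Nearest to Meg3 lie miR-493-5p, miR-337-3p and miR-665-3p, of which only miR-493-5p was seen. It had 2 reads in control-EV replicate 3, 1 in LPS-EV replicate 3, 1 in VitD3-EV replicate 1 and none in cells. Its EV share of 2.99 RPM (interval 0.814 to 7.65) was 17.9 times a floor of 3 reads over the 9 cellular libraries. This fold leaves out the counting error in EV and is no bound.

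Of the 40, 8 come from the stretch antisense to Rtl1 (miR-431, miR-433, miR-127, miR-434 and miR-136), and all 8 mature sequences lie within an exon of Rtl1 on the opposite strand in GENCODE vM21. Rtl1 is a retrotransposon-derived gene needed for the placenta, and in the mouse these miRNAs are known to pair perfectly with its mRNA and to direct its cleavage. The group held 59 reads in EV and 4 in cells, and 57 of the 59 were miR-127-3p. Reads of miR-127-3p were 0, 2 and 11 in control-EV, 2, 0 and 7 in LPS-EV, and 11, 8 and 16 in VitD3-EV, for replicates 1 to 3. In cells it had 1 read in control-DC replicate 3, 1 in VitD3-DC replicate 3 and none in the other 7 libraries. It was therefore seen in each VitD3-EV library, in 4 of the 6 other EV libraries, and hardly in cells. The other arm of the hairpin, miR-127-5p, had 2 reads, both in VitD3-EV replicate 3. miR-136-5p and miR-136-3p had 1 read each, in VitD3-DC replicate 3 and LPS-DC replicate 3. miR-431-5p, miR-433-3p, miR-434-3p and miR-434-5p had none.

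Between this stretch and the distal cluster lie miR-341-3p, which had no read, and miR-370-3p, which lies in an intron of the non-coding RNA Rian. miR-370-3p had 1 read each in control-EV replicate 2, LPS-EV replicate 3 and LPS-DC replicate 3.

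The other 27 miRNAs form the cluster from miR-379 to miR-410, at the distal end of the domain, where the host RNA Mirg lies. They held 86 reads in EV and 12 in cells, and 9 of the 27 had reads in EV. miR-379-5p, the first miRNA of this cluster, had 2, 1 and 6 reads in control-EV, 0, 0 and 6 in LPS-EV. VitD3-EV had 0, 0 and 11. In cells it had 1 read each in LPS-DC replicate 3 and VitD3-DC replicate 3. Of its 26 EV reads 23 were in replicate 3, so that outside replicate 3 it was seen in control-EV alone.

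miR-411-5p, its neighbour, had 0, 4 and 6 reads in control-EV, 0, 0 and 1 in LPS-EV, and 5, 0 and 4 in the VitD3-EV libraries. It had no read in cells. miR-409-3p, which lies in a Mirg intron, had 0, 0 and 8 reads in control-EV, 0, 0 and 2 in LPS-EV, and 2, 0 and 1 in the VitD3-EV libraries. Its single read in cells was in LPS-DC replicate 3. Both were spread over all 3 EV groups, with overlapping values. miR-381-3p had 0, 0 and 5 reads in control-EV, 0, 1 and 1 in LPS-EV, and 0, 1 and 2 in the VitD3-EV libraries. In cells it had 1 read in control-DC replicate 3 and 2 in LPS-DC replicate 3. It differs from miR-300-3p, another miRNA of the cluster, at 3 positions, with A4G the only one in the seed.
miR-300-3p: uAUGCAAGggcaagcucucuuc
miR-300-3p had no read in any library, while miR-381-3p had 13.

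The remaining reads of the cluster were few. miR-369-3p had 2, 2 and 3 reads in replicate 3 of control-EV, LPS-EV and VitD3-EV and none elsewhere. miR-382-5p had 1 read in control-EV replicate 1, 2 in control-EV replicate 3 and 3 in LPS-EV replicate 1. Both were at 0 in cells. Their EV shares were 5.23 RPM (interval 2.10 to 10.8) and 4.48 RPM (1.64 to 9.75). These were 31.3 and 26.8 times the floor of 3 reads over the 9 cellular libraries, with the counting error in EV left out. miR-543-3p had 2 reads in VitD3-EV replicate 1 and 1 in VitD3-DC replicate 3, miR-494-3p 1 read in VitD3-EV replicate 2, and miR-299a-3p 1 read in control-EV replicate 2. In cells alone were miR-541-5p, with 2 reads each in LPS-DC replicate 2 and VitD3-DC replicate 1, and miR-323-3p, with 1 read in control-DC replicate 1. Of the 27, 16 had no read, among them miR-134-5p, known in rodents for its action at neuronal synapses, and miR-376a-3p, miR-376b-3p and miR-376c-3p, whose precursors are known targets of A-to-I editing. At this depth 0 reads allow a share of up to 2.24 RPM over the EV libraries and 0.167 over the cellular libraries, so these miRNAs were not detectable rather than absent.

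**Figure D3:**
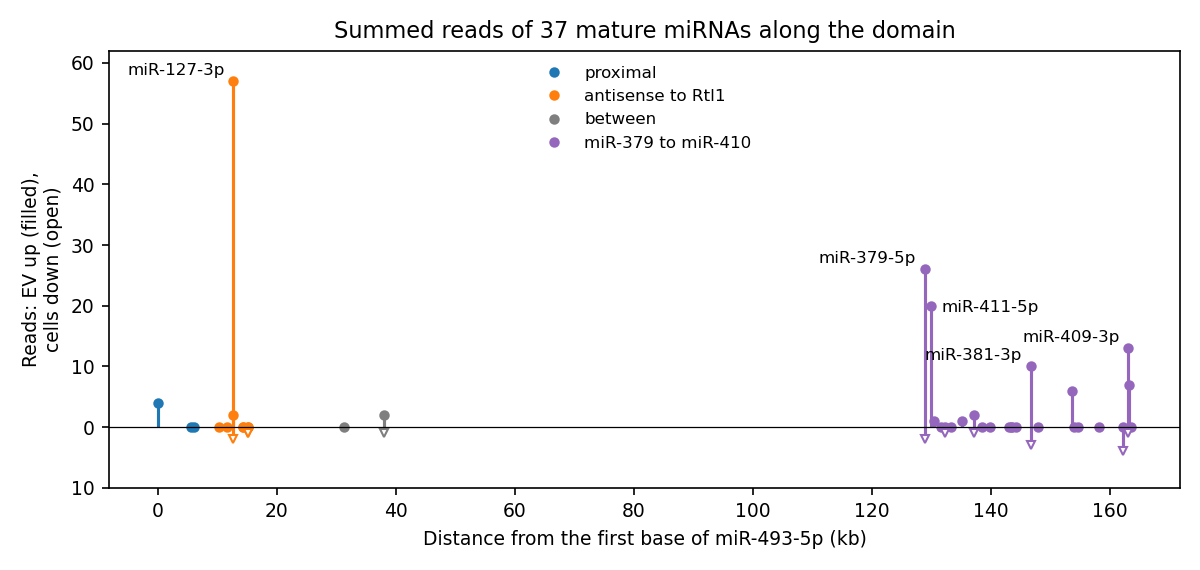
Summed reads of the 37 placed miRNAs (vertical axis, 9 EV libraries up and 9 cellular libraries down) against the distance in kb from the first base of miR-493-5p (horizontal axis), coloured by place in the domain. miR-127-3p (57 reads) and the group of miR-379-5p (26), miR-411-5p (20), miR-381-3p (10) and miR-409-3p (13) carry most EV reads, at 12.6 kb and at 129 to 163 kb.

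The rest of the interval was almost silent as well. Of 67 other mature miRNAs in the table that lie between the outermost listed ones, 3 had reads, here named after their values were seen: miR-409-5p with 5 and miR-411-3p with 1 read in EV, and miR-431-3p with 2 reads in cells. These are the second arms of hairpins on the list. The 23 snoRNA genes of the interval, which come from the same maternal transcripts, had 2 reads in cells, 1 each for Gm26922 and Gm25854, of 71118427 snoRNA reads. They had 0 reads in EV, of 312334 snoRNA reads.

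EV were then compared with cells in 1 fit over the 18 libraries with edgeR's quasi-likelihood test, with the day as a block. FDR is the Benjamini-Hochberg adjusted p over all 482 miRNA rows with at least 10 reads, and a miRNA was called at FDR below 0.05 with a change of over 2-fold. Of the 40 miRNAs 5 passed the filter and 35 were not tested. Each of the 5 passed through its EV reads, since none had more than 3 reads in cells, and a miRNA chosen that way had to lean to EV. The number called, and the FDR and ranks given below for EV against cells, are therefore no support for the list. Averaged over the 3 treatments all 5 were called higher in EV, beside 11.2% of all miRNA rows tested, and 0 were called lower, beside 3.53%.

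miR-127-3p showed the largest log2FC of the 482 rows, 7.26 (SE 0.69, edgeR FDR 5.05e-14), with a share of 42.6 RPM in EV and 0.111 in cells. The pooled ratio was 382-fold, and its counting interval ran from 101 to 3231 because it rested on 2 reads in cells. miR-379-5p followed at log2FC 6.37 (SE 0.94, edgeR FDR 6.48e-08), with a pooled ratio of 174 (43.6 to 1515), rank 4 of 482. miR-409-3p had log2FC 5.41 (SE 1.15, edgeR FDR 1.56e-04), with a pooled ratio of 174 (26.2 to 7406). miR-381-3p had log2FC 4.82 (SE 1.11, edgeR FDR 4.84e-04), with a pooled ratio of 44.7 (11.5 to 253). miR-411-5p was called with edgeR FDR 4.28e-04, and all its cellular libraries were at 0. Its EV share of 14.9 RPM (interval 9.12 to 23.1) was 89.4 times the floor of 3 reads over the 9 cellular libraries. Each of these log2FC averages over at least 1 cellular group at 0 reads (LPS-DC for miR-127-3p, control-DC for miR-379-5p, VitD3-DC for miR-381-3p, control-DC and VitD3-DC for miR-409-3p). Each log2FC and its rank therefore depend on the prior count of the fit, and no log2FC is a bound. The median log2FC of the 482 rows was -0.12.

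An exact sign-flip test over the 9 matched pairs, which makes no use of a count model, was added after the fit. It flips each pair on its own, although pairs of the same replicate number share a day. Its p can therefore be too small. miR-127-3p was higher in EV in 7 of 9 pairs with 2 tied at 0 (two-sided exact p = 0.0156, adjusted p = 0.0819 over 482). miR-379-5p, miR-381-3p and miR-411-5p were higher in 5 of 9 pairs (exact p = 0.0625) and miR-409-3p in 4 of 9 (exact p = 0.125), with the other pairs tied at 0. None of the 5 passed the adjustment over 482 rows in this test. No untied pair was lower in EV, so each p is the smallest that the number of untied pairs allows. The ties at 0 limited what the test could call. Since each of the 5 passed the filter through its EV reads, its untied pairs had to lean to EV. These exact p are therefore no support for the list either. In the edgeR fit 1 miRNA remained testable and called without replicate 3, namely miR-127-3p. Besides the main fit, miR-127-3p was called in 32 of the 32 alternative model fits that tested it. Without LPS-EV replicate 3 the number called fell to 2, without control-EV replicate 3 to 3 and without VitD3-EV replicate 3 to 4, since miR-379-5p lost its call.

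**Figure D4:**
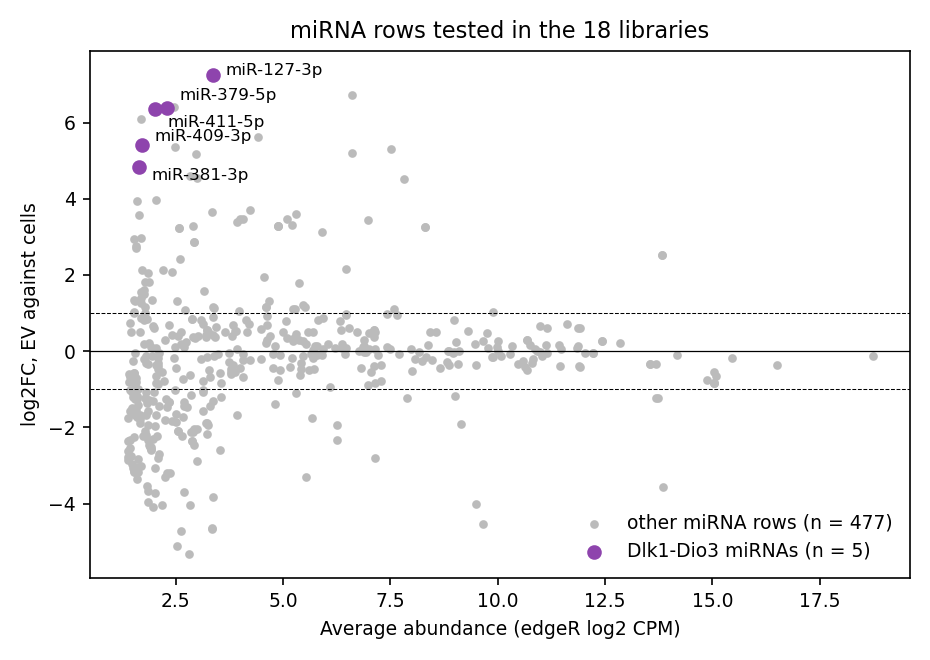
log2FC of EV against cells (edgeR, mean over the 3 treatments) against average abundance (log2 CPM) for the 482 miRNA rows tested; purple points are the 5 Dlk1-Dio3 miRNAs that passed the filter, grey points the other rows, and dashed lines 2-fold. The 5 lie at log2FC 4.82 to 7.26, at the low end of abundance.

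Within control cultures 4 of the 5 were called higher in EV, beside 7.68% of the 482 rows, and miR-381-3p was not (log2FC 4.23, SE 1.75, edgeR FDR 0.124). Within LPS cultures 2 were called, beside 8.51%: miR-127-3p (edgeR FDR 7.63e-05) and miR-379-5p (edgeR FDR 0.0282). miR-381-3p had log2FC 3.38 and miR-409-3p 3.42 (edgeR FDR 0.366 for both), and miR-411-5p, at 0 in LPS-DC, had FDR 0.348. Within VitD3 cultures all 5 were called, beside 8.71%, with miR-127-3p first of the 482 rows (log2FC 9.20, SE 1.05, edgeR FDR 1.11e-10). Without replicate 3 these counts became 0, 0 and 1. DESeq2 called 2, 1 and 3 in place of 4, 2 and 5. The interaction, that is whether a treatment changed a miRNA differently in EV and cells, was called for 0 of the 5 under LPS and 0 under VitD3, with 0 of the 5 at an unadjusted p under 0.05 and 0 by DESeq2. Over all 482 rows 0% were called in either direction for LPS, and 0.622% higher and 0% lower for VitD3. At an unadjusted p under 0.05 were 4.15% higher and 2.70% lower for LPS, and 5.39% higher and 2.49% lower for VitD3. In 8 of these 10 tests a cellular group was at 0 reads, so that no size of the interaction can be given. The other 2 were miR-127-3p under VitD3, with 3.53 on the log2 scale (SE 2.43, edgeR FDR 0.935) and 1 read in each of control-DC and VitD3-DC, and miR-381-3p under LPS, with -0.85 (SE 2.97, edgeR FDR 1) and 1 and 2 reads in control-DC and LPS-DC. At this depth a difference in treatment effect between EV and cells was not detectable for the 5.

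Among EV, the treatments were compared over the 9 EV libraries, where 281 miRNA rows and the same 5 of the 40 passed the filter. miR-127-3p stood out. Its share was 0, 34.0 and 33.4 RPM in control-EV, 9.59, 0 and 27.0 in LPS-EV, and 85.5, 189 and 133 in VitD3-EV. The VitD3-EV libraries did not overlap with the others, and control-EV and LPS-EV did. The means were 22.5 ± 19.5, 12.2 ± 13.7 and 136 ± 51.7 RPM (SD, n = 3 each).

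miR-127-3p was called higher in VitD3-EV than in control-EV (log2FC 3.04, SE 0.80, edgeR FDR 0.00806), the only one of the 5, beside 3.91% of the 281 rows. It ranked second of the 281 by log2FC. In LPS-EV it was called lower when set against VitD3-EV (log2FC -3.28, SE 0.84, edgeR FDR 0.00289), again alone, beside 7.12%. Both calls rested on the block and on replicate 3. Without the block FDR was 0.349 and 0.117, with log2FC of 2.81 and -3.27, close to those with the block, and without replicate 3 it was 0.506 and 0.238, with log2FC of 4.02 and -3.74. The call against control-EV was also lost without replicate 1 (FDR 0.0928), without control-EV replicate 1 (0.0771) or 3 (0.179) and without VitD3-EV replicate 3 (0.0718). The call against LPS-EV was also lost without LPS-EV replicate 3 (0.0647). The log2FC kept its sign in all 31 settings of each comparison.

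LPS-EV did not differ detectably from control-EV for any of the 5 (0 called, 0 at an unadjusted p under 0.05, 0 by DESeq2 and 0 by the likelihood ratio test), beside 1.42% called higher and 0% lower over the 281 rows. At an unadjusted p under 0.05 were 4.63% of the rows higher and 2.85% lower. miR-127-3p had log2FC -0.24 (SE 0.91, edgeR FDR 0.964) there. miR-411-5p, with 1 read in LPS-EV against 9 in VitD3-EV, had log2FC -3.77 in LPS-EV against VitD3-EV (SE 1.58, edgeR FDR 0.103), and passed the likelihood ratio test (adjusted p = 0.0206). miR-379-5p, miR-409-3p and miR-381-3p had FDR of 0.430 to 0.964 in the 3 comparisons among EV. In cells none of the 40 miRNAs reached 10 reads, so no treatment was tested there. The comparisons share control-EV and VitD3-EV libraries and are not independent of each other.

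Other groups of miRNAs were set beside the Dlk1-Dio3 miRNAs, as marker lists for cell types. The 5 myeloid or haematopoietic miRNAs (miR-223-3p, miR-142a-3p, miR-142a-5p, miR-146a-5p and miR-155-5p), which mark DC and their relatives, were all present, at 4326 to 31317 RPM in EV (median 7596) and 3240 to 16457 in cells (median 6762). Their pooled ratio of EV to cells was 1.22, with and without replicate 3. The 6 stromal or fibroblast miRNAs (miR-199a-3p, miR-199a-5p, miR-199b-5p, miR-214-3p, miR-143-3p and miR-145a-5p) were higher in EV in 9 of 9 pairs, at 18.9 to 1566 RPM (median 249) against 1.95 to 54.1 in cells (median 6.43). Their pooled ratio was 21.7, and 15.6 without replicate 3. Most of their reads were of miR-143-3p, with 572 in EV and 263 in cells, so the ratio is largely that of this miRNA. All 6 had reads in EV and 5 in cells, where miR-214-3p was at 0. The 3 erythroid miRNAs (miR-451a, miR-144-3p and miR-144-5p) were also higher in EV in 9 of 9 pairs, at 6.30 to 232 RPM (median 54.4) against 0 to 4.56 (median 0), with a pooled ratio of 60.6. Without replicate 3 it was 375, on the 1 read that the cells then held, and miR-144-3p was at 0 in cells. miR-451a held most reads of this list, with 103 in EV and 26 in cells.

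The muscle list had a pooled ratio of 14.3, which became 1.70 without replicate 3. Most of its reads were of miR-1a-3p, with 47958 in EV and 45023 in cells. The liver miRNA miR-122-5p had 12.2 and 5.36 without replicate 3. The 4 neuronal miRNAs had 1.46 (1.88 without replicate 3), with miR-124-3p at 0 in cells and miR-218-5p at 0 in EV, and the 7 epithelial miRNAs 2.01 (2.27 without replicate 3). By pooled ratio the Dlk1-Dio3 miRNAs, at 119, stood above each of these 7 lists with all replicates, and below the erythroid list without replicate 3. The stromal list was at 18.9, 408 and 756 RPM in control-EV, 28.8, 180 and 768 in LPS-EV. In VitD3-EV it was at 249, 165 and 1566. Control-EV replicate 1 and LPS-EV replicate 1 were thus the lowest EV libraries for the stromal list as for the Dlk1-Dio3 sum, but the 3 VitD3-EV libraries did not stand above all others for the stromal list. The part of stromal, erythroid or muscle miRNAs in the EV share of the Dlk1-Dio3 miRNAs was not tested.

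**Figure D5:**
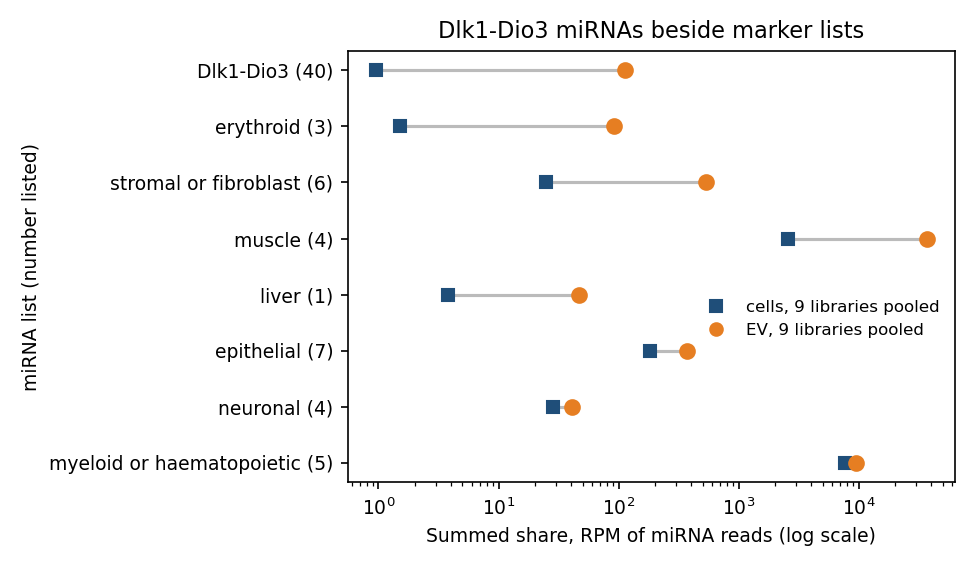
Pooled share of the 40 Dlk1-Dio3 miRNAs and of the 7 marker lists (number of miRNAs listed in brackets) in RPM of miRNA reads, on a log axis; squares are the 9 cellular and circles the 9 EV libraries. The myeloid or haematopoietic list is near its cellular level in EV (ratio 1.22), and the Dlk1-Dio3 miRNAs have the widest gap with all replicates (ratio 119). Without replicate 3 the erythroid ratio is higher (375 against 147).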

How the data were processed

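The deposited table holds the authors' raw read counts per gene, whole numbers without normalization, for EV and cellular small RNA. By the study's methods and the submitters' processing notes, rRNA was depleted, library size fractions were pooled to favour longer RNA, reads were trimmed with cutadapt 1.8, aligned to mm10 with gsnap and counted with HTSeq 0.6.1p1 by strand. Shares of miRNAs among all RNA therefore depend on that pooling, and shares here are of miRNA reads.

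The list and the tests were chosen with earlier results of these data known. Named miRNAs are those with at least 10 reads, those past FDR below 0.05, and the rest by reads. miRNA rows with at least 10 reads were tested with edgeR 4.0.16 (R 4.3.3; quasi-likelihood, two-sided, prior count 0.125) for group and replicate. TMM factors came from the 93 rows with at least 5 reads in every library, a choice made after factors from all rows called unchanged rows in simulated data. Alternatives were the likelihood ratio test, DESeq2 1.42.0, other scalings and filters, no block, 1 row per mature miRNA and leaving out replicates and libraries. Replicate numbers were taken to pair samples: the study prepared replicates on different days, and same-numbered deviations correlated with r of 0.125 to 0.696 in EV and 0.0376 to 0.562 in cells (17 of 18 pairs over 0.1). These correlations are within EV or within cells, so they do not test which EV library belongs to which cells. VitD3-DC replicate 2 is labelled run 2, but its description carries the flow-cell name of the run 1 libraries, so its run is in doubt; run entered no test. No 2 libraries held identical values. Figures used matplotlib 3.10.9.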

Additional observations from a re-analysis of the deposited data

How the results depend on the processing

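No log2FC that the main test called changed its sign in any setting run. Of the 5 miRNAs called in EV against cells, 3 remained called and tested with filterByExpr, 0 were tested with at least 10 reads required in cells, and 0 passed the sign-flip test; leaving out 1 replicate or library gave 1 to 5. For control, LPS and VitD3 cultures, in place of 4, 2 and 5, DESeq2 with the block called 2, 1 and 3, the filter on cells 0, 0 and 0, and leaving out replicates or libraries 0 to 4, 0 to 2 and 1 to 5. LPS gave 1 with no replicate block and 1 with TMM factors from all rows, and VitD3 gave 3 with at least 1 read and 3 with filterByExpr. The filter on cells, the sign-flip test and TMM factors from all rows were chosen after seeing the data. For VitD3-EV against control-EV the count of 1 became 0 with no replicate block and 0 to 1 in leave-outs. For LPS-EV against VitD3-EV it became 2 with the likelihood ratio test, 0 with no replicate block and 0 to 2 in leave-outs. The block changed no other count by over 1.5 times. The mean summed share in EV of 129 RPM was 11.6 over all counted reads and 249 without miR-21a-5p. That in cells was 0.0808 over all counted reads in place of 0.930. With at least 3 reads the median number of the 40 per EV library was 1 in place of 5. The cause was not tested, beyond the fewer reads or rows these settings leave. Scaling moved the median log2FC of all rows between -0.73 (DESeq2 size factors) and 0.12 (TMM over all classes), with -0.12 in the main test. Depth limits each value: 12 of the 17 miRNAs seen had 1 to 9 reads.

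Values that the main test did not call changed sign as follows. DESeq2 gave 0.093 for the LPS interaction of miR-381-3p and 0.0020 for miR-381-3p in LPS-EV against control-EV, and no replicate block gave -0.10 for miR-409-3p in VitD3-EV against control-EV. Leaving out 1 replicate or library, log2FC ran from -0.26 to 3.91 for miR-409-3p in LPS-EV against LPS-DC and from -2.26 to 1.08 for the LPS interaction of miR-381-3p. In LPS-EV against control-EV it ran from -0.53 to 0.77 for miR-127-3p. In VitD3-EV against control-EV it ran from -3.20 to 2.01 for miR-379-5p, -0.095 to 1.07 for miR-381-3p, -1.28 to 3.25 for miR-409-3p and -0.048 to 2.24 for miR-411-5p. In LPS-EV against VitD3-EV it ran from -3.63 to 2.42 for miR-379-5p.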
